A study of Rattus norvegicus with 32 samples.

Results

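Cholesterol synthesis and its control were followed through 8 genes in the left ventricle of septic rats. They comprised the enzyme genes Hmgcs1, Idi1, Fdft1, Sqle and Lss, and the regulator genes Insig1, Srebf1 and Srebf2. Members were found by symbol in either version of the array annotation, which gave 14 of the 45598 probes on the array, so 6 probes were further probes of Idi1, Sqle, Lss, Insig1 and Srebf1. All 14 probes passed the filter on low signal in both sexes. Each gene is reported by its brightest probe. None of the 8 genes encodes a receptor that takes up lipoprotein, and genes of uptake are described with the other genes of the pathway.

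Cardiac transcripts were measured in Wistar rats aged 9 to 12 weeks that had undergone a sham operation, caecal ligation and puncture (CLP, a surgical model of abdominal sepsis), or CLP followed by landiolol, a short-acting blocker of the beta-1 adrenergic receptor infused at 0.1 mg/kg/min. Sham and CLP animals received saline at a similar volume, every animal received buprenorphine, and no antibiotics were given. In each sex, 5 sham, 5 CLP and 6 CLP plus landiolol hearts were profiled at 20 h, 1 animal to an array, 32 arrays in all. Before freezing, the hearts of all groups had been imaged and perfused ex vivo, and RNA samples of low quality or quantity had been discarded by the authors, so the arrays describe the perfused hearts that gave sound RNA.

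Between 59.5% and 73.5% of the non-control spots of an array were well above background, and no spot was saturated. The arrays lay on 4 slides, 2 for each sex, with every group of a sex on both slides. The 8 arrays of 1 female slide, which held all 3 groups, carry another version of the extraction protocol than the other 24 arrays. In females all 5 sham arrays lay in the first row of their slides and all 6 CLP plus landiolol arrays in the second row, so that row and group cannot be told apart between them except through the CLP arrays. The 7 cardiomyocyte markers were well above background on every array, with a summed level (log2 of the added intensities) from 20.75 to 20.93. These are whole-tissue measurements, in which fewer cells of a type and less RNA per cell cannot be told apart.

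Cells make cholesterol from acetyl-CoA by the mevalonate pathway, and switch the genes of the pathway on together when sterols in the endoplasmic reticulum run low. The switch is the transcription factor family of sterol regulatory element-binding proteins (SREBP). Scap carries the SREBP precursor to the Golgi apparatus, where proteases free the active factor, and Insig proteins hold the complex back when sterol is plentiful. Srebf2 chiefly drives cholesterol synthesis and uptake, and Srebf1 chiefly drives fatty acid synthesis. The heart makes some cholesterol of its own and takes up the rest from lipoproteins.

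None of the 8 genes was called in any of the 6 comparisons between groups of a sex. The test was limma with Benjamini-Hochberg adjustment over all probes kept, at a false discovery rate (FDR) of 1% against sham and of 5% between CLP plus landiolol and CLP. In males, 0 of 8 members passed in CLP against sham, where 7.81% of all probes did, 0 of 8 in CLP plus landiolol against CLP (1.56% of all probes), and 0 of 8 in CLP plus landiolol against sham (4.15% of all probes). In females the same counts were 0 of 8 against 3.63% of all probes, 0 of 8 against 0.0945%, and 0 of 8 against 5.25%. At an unadjusted p under 0.05, the numbers of members were 2, 1 and 3 in males, beside 28.8%, 14.8% and 24.2% of all probes, and 3, 1 and 4 in females, beside 23.1%, 9.34% and 26.7%. The median difference of the 8 members, on the log2 scale, was -0.16, 0.16 and -0.02 in males and -0.28, -0.08 and -0.41 in females, beside medians over all probes from -0.02 to 0.03. The 48 differences of the brightest probes had 95% intervals that lay between -1.17 and 1.02, or 2.26-fold lower and 2.03-fold higher. Each interval covers its own difference and not all 48 at once. Intervals of further probes reached -1.26 for Idi1 in female CLP plus landiolol against sham and 1.32 for Srebf1 in female CLP against sham. Hmgcs1 came nearest to the threshold, with an adjusted p of 0.0102 in male CLP hearts.

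**Figure D1:**
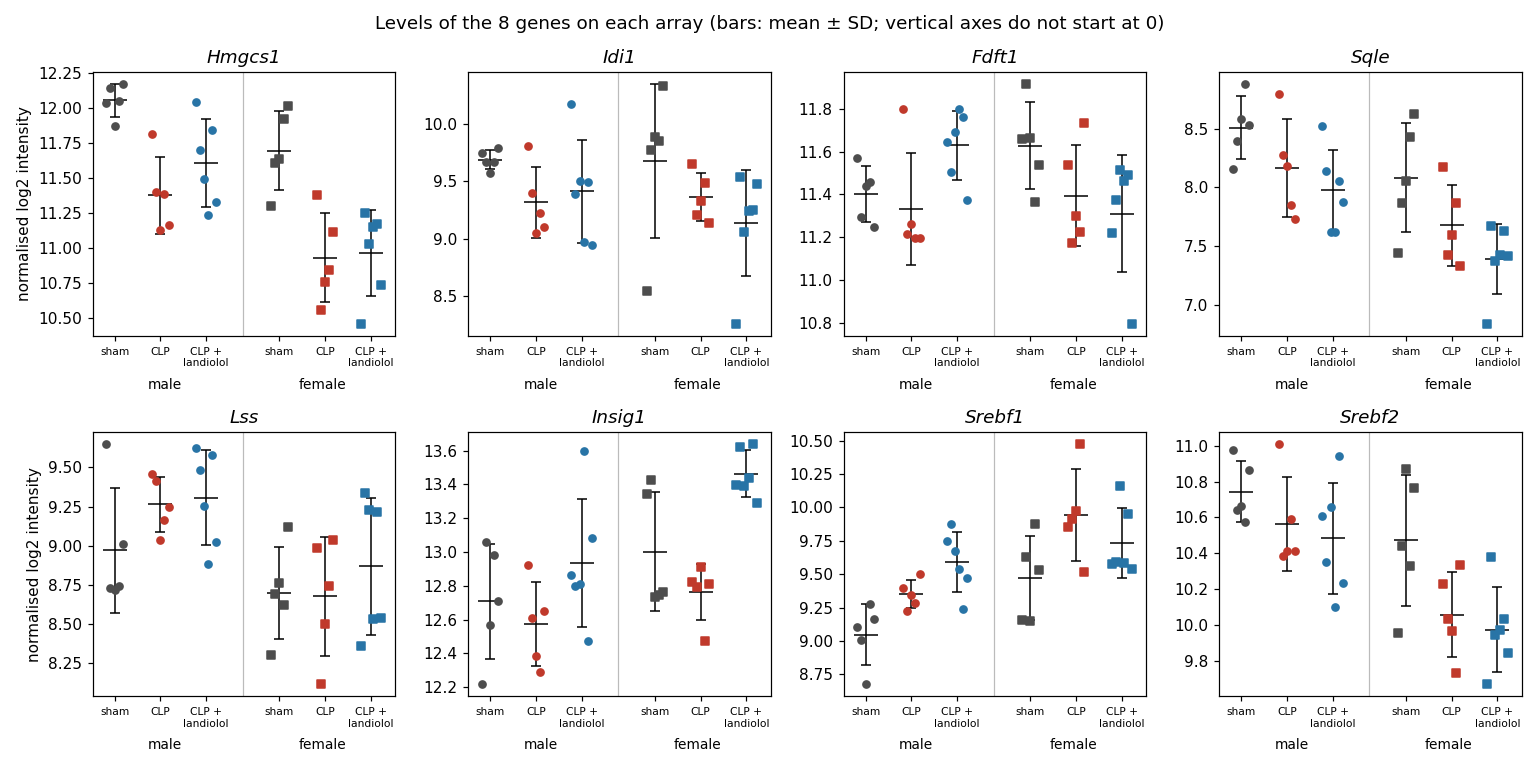
Normalised log2 intensity of the 8 genes (vertical axes) on each of the 32 arrays, by sex and group. Each point is 1 animal and the bars give the group mean ± SD. Male Hmgcs1 lay between 11.87 and 12.17 in sham hearts and between 11.13 and 11.82 in CLP hearts, and female Insig1 lay between 13.29 and 13.64 with landiolol and between 12.47 and 12.91 in CLP hearts.

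Hmgcs1 encodes the synthase that forms HMG-CoA, an early step of the pathway. Its probe lies at chr2:51754514-51754573 in the rat build rn4. In male sham hearts its levels were 12.04, 12.15, 11.87, 12.05 and 12.17 (normalised log2 intensity). In male CLP hearts they were 11.82, 11.40, 11.13, 11.39 and 11.17. The groups did not overlap, as was so for 12.3% of all probes in this comparison and for 1 of the 8 members. Hmgcs1 was lower by a log2 difference of -0.68 ± 0.16 (SE, n = 5 and 5, limma), or 1.60-fold, with a 95% interval from -1.02 to -0.33. The adjusted p of 0.0102 missed the 1% level. The difference was past that level in 7 of 11 alternative settings of the processing, where its adjusted p ran from 0.00205 to 0.0179, and when male CLP replicate 1, male CLP plus landiolol replicate 1 or male CLP plus landiolol replicate 4 was left out (0.00297, 0.00695 and 0.00833). Within the slides it was -0.64 and -0.76.

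Male hearts given landiolol had Hmgcs1 levels from 11.24 to 12.05 with a median of 11.60, a range that held values of both other groups. Against CLP the difference was 0.23 ± 0.16 (SE, n = 6 and 5, limma adjusted p = 0.518), and against sham it was -0.45 ± 0.16 (SE, n = 6 and 5, limma adjusted p = 0.085).

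In female sham hearts the levels of Hmgcs1 were 11.30, 11.61, 11.64, 11.92 and 12.02. Female CLP hearts gave 11.38, 10.56, 10.76, 10.85 and 11.12, so that the highest CLP array stood above the lowest sham array. With landiolol the 6 levels ran from 10.46 to 11.25 with a median of 11.09, all below sham. Such a gap between groups was found for 9.74% of all probes in this comparison and for 1 of the 8 members. The log2 difference was -0.76 ± 0.19 in CLP (SE, n = 5 and 5, limma adjusted p = 0.0209) and -0.73 ± 0.19 in CLP plus landiolol (SE, n = 6 and 5, limma adjusted p = 0.0171), both against the same sham arrays. Between CLP plus landiolol and CLP it was 0.03, with an interval from -0.36 to 0.43. Both differences from sham passed the 1% level with array weights and in the table deposited by the authors. Within the slides the female CLP difference was -0.95 and -0.68. With a term for slide row, the difference between CLP plus landiolol and sham was -0.81 and its limma adjusted p rose to 0.459.

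Further down the pathway, Idi1 encodes the isomerase that converts isopentenyl diphosphate, Fdft1 encodes squalene synthase, Sqle encodes squalene epoxidase, and Lss encodes lanosterol synthase, which forms the sterol ring system. In the same order their probes lie, in rn4, at chr17:72557223-72557282, chr15:42425389-42425448, chr7:96111693-96111752 and chr20:12506021-12506080. The array annotation gives a transcript for each probe and does not say which exon or untranslated region it covers.

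Sqle was measured on 10 spots of each array. In males its levels ran from 8.15 to 8.88 in sham hearts, from 7.73 to 8.80 in CLP hearts and from 7.62 to 8.53 with landiolol. In females the ranges were 7.44 to 8.63, 7.33 to 8.18 and 6.84 to 7.68. The ranges overlapped in every comparison. Its most negative difference was that of female CLP plus landiolol against sham, -0.69 ± 0.22 (SE, n = 6 and 5, limma adjusted p = 0.0486), above the 1% level used there. Without female CLP plus landiolol replicate 1, the array at 6.84, it was -0.58 (limma adjusted p = 0.0972). In males the same comparison gave -0.54 ± 0.20 (SE, limma adjusted p = 0.115), with -0.18 on one slide and -0.81 on the other. The male CLP difference from sham was -0.34, and it was 0.14 and -0.88 within the slides.

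Idi1 levels were close together in male sham hearts, from 9.58 to 9.79, and spread from 9.04 to 9.81 in CLP hearts and from 8.95 to 10.17 with landiolol. Female sham hearts had levels of 8.54, 9.78, 9.89, 9.85 and 10.34, so 1 array lay more than a log2 unit under the other sham arrays. The 6 differences of Idi1 lay between -0.54 and 0.10, and none had a limma adjusted p under 0.228.

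Fdft1 gave levels of 11.80, 11.21, 11.26, 11.20 and 11.20 in male CLP hearts, the first of which stood apart. With landiolol the male levels ran from 11.38 to 11.80 with a median of 11.67. The difference was 0.30 ± 0.13 (SE, n = 6 and 5, limma adjusted p = 0.280), and without male CLP replicate 1 it was 0.41 with an adjusted p of 0.0407, past the 5% level. In females it was -0.08, and 5 of the 6 levels with landiolol lay between 11.22 and 11.51 while the sixth was 10.79.

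Lss levels overlapped between all groups, from 8.72 to 9.65 in male sham and from 8.11 to 9.04 in female CLP hearts. Its reported probe, which only the annotation of the female files names Lss, gave log2 differences of 0.29 in male and -0.02 in female CLP hearts against sham, with limma adjusted p of 0.349 and 0.974. A pair of further Lss probes, both at chr20:12507646-12507705, gave 0.29 and 0.24 in males and 0.35 and 0.42 in females. In females the probes thus differed in sign, and none of the Lss differences was called.

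Among the regulators, Insig1 encodes the endoplasmic reticulum protein that retains Scap and is itself a target of SREBP. Its probe lies at chr4:2577497-2577556 in rn4. In female CLP hearts its levels were 12.82, 12.79, 12.91, 12.47 and 12.81. With landiolol they ran from 13.29 to 13.64 with a median of 13.42, above every CLP array. A gap of this kind was present for 1.15% of all probes and 1 of the 8 members in that comparison. Female sham arrays fell on both sides, 3 of them at 12.73 to 12.77 and the others at 13.35 and 13.43. Insig1 was 1.62-fold higher with landiolol than in CLP, a log2 difference of 0.70 ± 0.15 (SE, n = 6 and 5), with a 95% interval from 0.38 to 1.02. Its limma adjusted p of 0.107 missed the 5% level, while the unadjusted p was 0.000281. With array weights the adjusted p was 0.0401, and over the 11 alternative settings it reached 0.357 at most. The further Insig1 probe gave 0.58 (limma adjusted p = 0.515), and within the slides the difference was 0.84 and 0.60. Against sham it was 0.46 ± 0.15 (SE, limma adjusted p = 0.0573).

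Male Insig1 levels overlapped between all groups. They ran from 12.22 to 13.06 in sham hearts, from 12.29 to 12.92 in CLP hearts and from 12.47 to 13.60 with landiolol. The difference between CLP plus landiolol and CLP was 0.36 ± 0.19 (SE, n = 6 and 5, limma adjusted p = 0.409), and the further probe gave -0.04. The male difference minus the female difference was -0.33 with an interval from -0.84 to 0.17 (limma adjusted p = 0.968), so a difference between the sexes was not detectable.

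Srebf1 encodes the SREBP of fatty acid synthesis, and its probe lies at chr10:46462235-46462294 in rn4. In male sham hearts the levels were 9.11, 9.004, 8.67, 9.28 and 9.17, and in male CLP hearts 9.40, 9.23, 9.34, 9.28 and 9.50. With landiolol they ran from 9.24 to 9.88 with a median of 9.60. Only the lowest landiolol array fell within the sham range, and no member had separate groups here, while 7.79% of all probes had. The log2 difference from sham was 0.30 ± 0.13 in CLP (SE, n = 5 and 5, limma adjusted p = 0.146) and 0.54 ± 0.13 in CLP plus landiolol (SE, n = 6 and 5, limma adjusted p = 0.0139), or 1.46-fold, with an interval from 0.27 to 0.82. The latter passed the 1% level with normexp background correction, with array weights and without male CLP plus landiolol replicate 5 (0.00748, 0.00152 and 0.00554). Within the slides it was 0.71 and 0.38, and a further Srebf1 probe gave 0.39 (limma adjusted p = 0.274).

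Female Srebf1 levels were 9.16, 9.63, 9.15, 9.88 and 9.53 in sham hearts and 9.85, 9.91, 9.97, 10.48 and 9.52 in CLP hearts. The difference of 0.48 ± 0.19 (SE, n = 5 and 5, limma adjusted p = 0.146) was uneven over the slides, with 0.91 on one and 0.03 on the other. With landiolol the difference from sham was 0.26 (limma adjusted p = 0.401). In the female comparisons, 8.32% of all probes separated CLP from sham and none of the 8 members did. For male CLP plus landiolol against CLP those figures were 2.27% and none.

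Srebf2 encodes the SREBP of cholesterol synthesis, with its probe at chr7:120580150-120580209 in rn4. Its differences from sham were negative in each sex, -0.18 and -0.26 in male CLP and CLP plus landiolol hearts and -0.41 and -0.50 in the female ones. The female values had limma adjusted p of 0.182 and 0.0743. In females the levels ran from 9.95 to 10.87 in sham hearts, from 9.73 to 10.34 in CLP hearts and from 9.67 to 10.38 with landiolol, and the ranges overlapped.

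**Figure D2:**
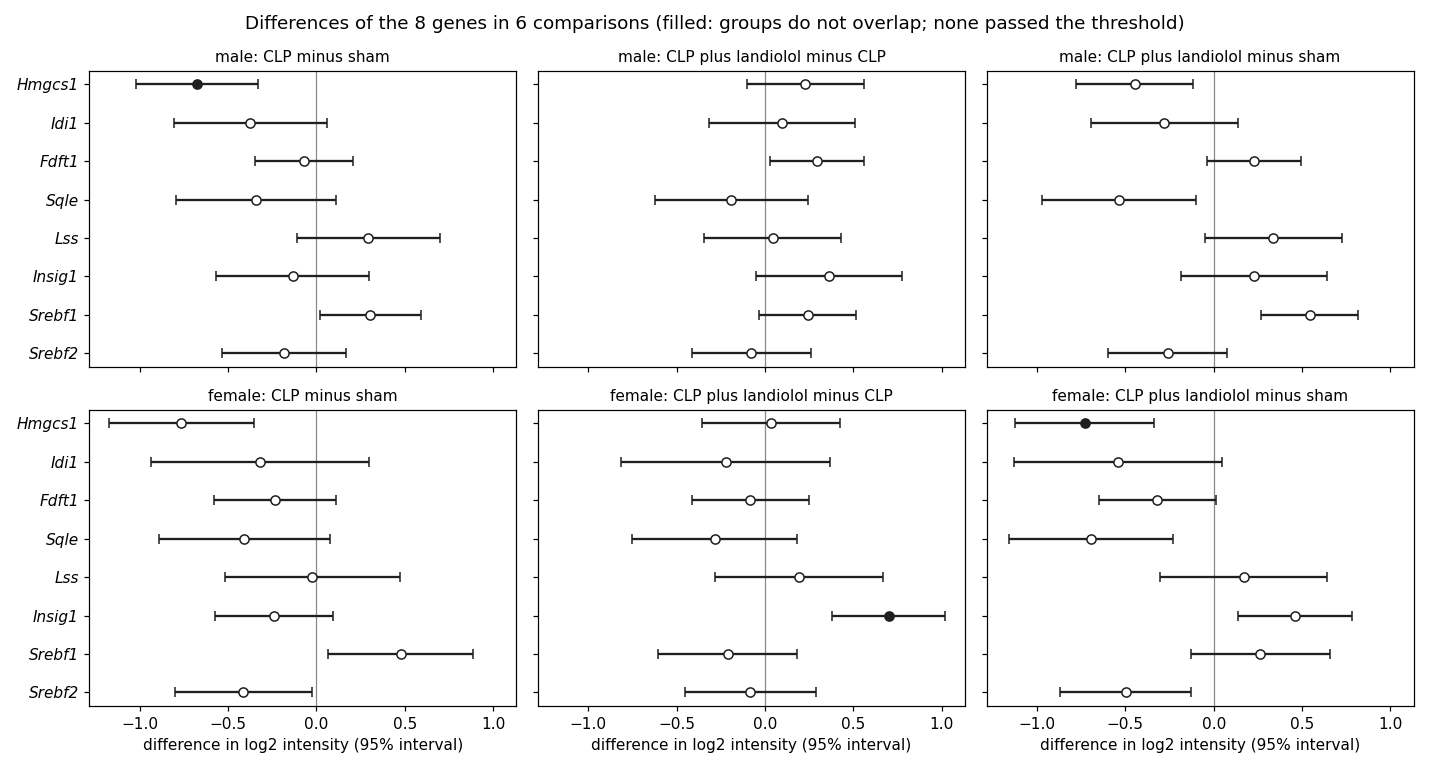
Difference in log2 intensity (horizontal axes) of the 8 genes in the 3 comparisons of each sex, from limma. Bars are 95% intervals and filled points mark comparisons in which the groups did not overlap. None of the 48 differences passed its threshold. The filled points are Hmgcs1 in male CLP (-0.68) and female CLP plus landiolol (-0.73) against sham, and Insig1 in female CLP plus landiolol against CLP (0.70).

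No sex difference was called among the members. The male minus the female log2 difference was tested as an interaction over the 32 arrays at an FDR of 5%, which 0% of all 26492 probes passed in each of the 3 contrasts. At an unadjusted p under 0.05 there was 1 member, Fdft1, in the contrast of CLP plus landiolol with sham, where 6.3% of all probes were under that level. The male difference there was 0.23 and the female one -0.32, and the sex difference was 0.55 ± 0.20 (SE, unadjusted p = 0.00906, limma adjusted p = 0.623). The 24 sex differences lay between -0.33 and 0.55, with intervals that reached from -0.84 to 1.04. For Hmgcs1 in CLP against sham the sex difference was 0.10, with an interval from -0.42 to 0.62.

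Several members moved together from animal to animal within the groups. Each array was expressed as its deviation from its group mean and Pearson's r and Spearman's rho were computed for the 28 pairs over the 32 arrays, with permutation tests of arrays within groups and adjustment over the pairs. Of the 28 pairs, 9 had an adjusted p under 0.05, all with a positive r. The share of pairs among all probes that would pass the same test was not measured, so this count has no background beside it. Idi1 and Sqle gave r = 0.78 (rho = 0.74, permutation test, adjusted p = 0.00014 for r and 0.00028 for rho). Hmgcs1 gave r = 0.77 with both Idi1 (rho = 0.73) and Sqle (rho = 0.74), each with a permutation p of 1e-05 for r, the smallest that 100000 permutations can give, and an adjusted p of 9.33e-05 for r and 0.00028 for rho. Without the 2 arrays farthest from the median of the first gene named, these r were 0.72, 0.74 and 0.71. With the slide removed as well, the 3 values were 0.78, 0.73 and 0.76. They were positive in each sex taken alone, from 0.67 to 0.91.

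Hmgcs1 also moved with Lss (r = 0.73, rho = 0.73, permutation test, adjusted p = 9.33e-05 and 0.00028) and with Srebf2 (r = 0.69, rho = 0.67, permutation test, adjusted p = 0.000887 and 0.00168), and without the 2 farthest arrays these r were 0.69 and 0.67. Only the reported probe of each gene was correlated, which for Lss is the one named so only in the annotation of the female files. The further Lss probes were not correlated. Insig1 had no pair that passed, and 6 of its 7 correlations were negative. Srebf1 had no pair that passed either. The arrays share a scale of brightness, and the median signal of an array correlated with some members. For Srebf2 the deviations had r = -0.82 with it (rho = -0.85, permutation test, adjusted p = 8e-05 for both over the 8 members, r = -0.76 without the 2 farthest arrays). For Lss they had r = -0.52 (rho = -0.52, permutation test, adjusted p = 0.0255 and 0.0263), and r = -0.53 without those arrays. For Hmgcs1 r was -0.41 (rho = -0.46, permutation test, adjusted p = 0.0568 and 0.0411), and for Sqle it was -0.01 (rho = 0.01, permutation test, adjusted p = 0.966 and 0.976). With the median signal removed as well, r was 0.84 for Hmgcs1 and Sqle, 0.75 for Hmgcs1 and Idi1 and 0.82 for Idi1 and Sqle, and it fell from 0.67 to 0.50 for Lss and Srebf2.

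**Figure D3:**
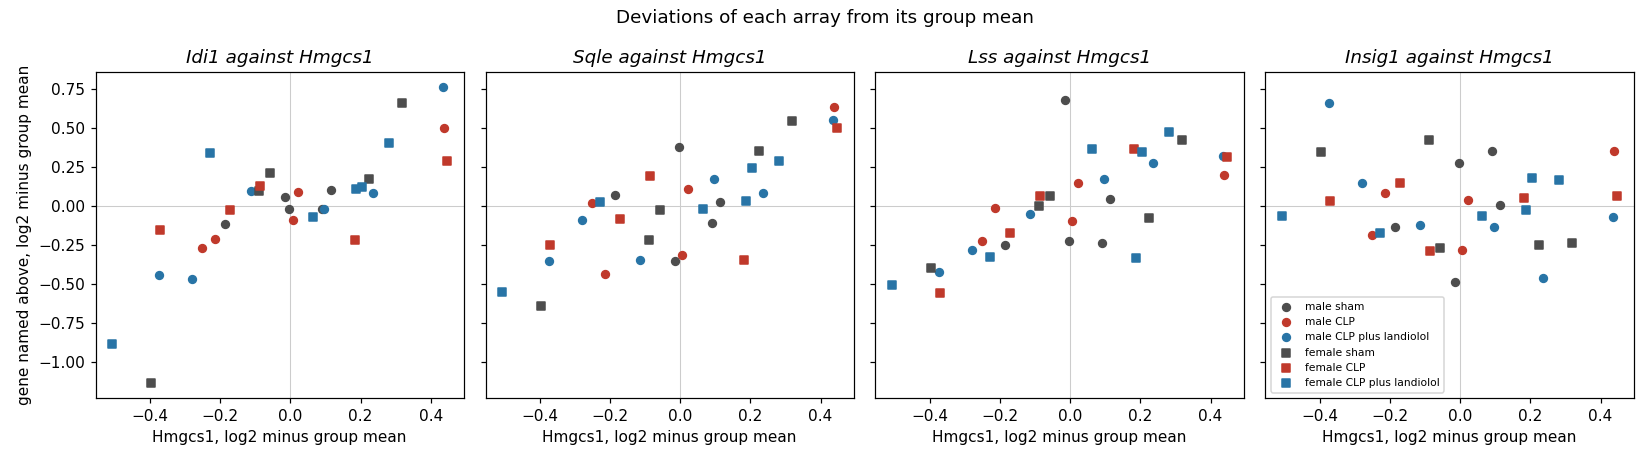
Deviation of each of the 32 arrays from its group mean on the log2 scale, for Idi1, Sqle, Lss and Insig1 (vertical axes) against Hmgcs1 (horizontal axes). Colours give the group, circles are males and squares are females. Idi1, Sqle and Lss rise with Hmgcs1 (r = 0.77, 0.77 and 0.73), while Insig1 has no such slope (r = -0.15).

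The genes most like each member were sought among all probes with a symbol that were kept in both sexes, by Pearson's r over the 32 arrays after centring each sex, as a description. Sqle was most like Msmo1, the sterol C4-methyl oxidase gene of the same pathway (r = 0.82), then Idi1 (0.81) and Hmgcs1 (0.78). Idi1 was most like Sqle (0.81), Tnfrsf18 (0.77) and Tgif2 (0.77). Hmgcs1 was most like Ndufb1, a subunit of respiratory complex I (0.90), Alad (0.88) and Lrrc8b (0.88). Srebf1 came closest to Copg2 (0.81), the lipoprotein lipase gene Lpl (0.78) and Glrx2 (0.74), and Insig1 to Nckap5 (0.77), the muscle ubiquitin ligase gene Trim63 (0.73) and Mospd1 (0.73). For Fdft1 the nearest were Etfb (0.78), Rnf114 (0.78) and Foxd4 (0.76), for Lss Rps28, Synj1 and St3gal4 (0.88, 0.88 and 0.87), and for Srebf2 Traf3, Tgfa and Sufu (0.86, 0.85 and 0.85).

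Promoters of 6 of the 8 genes are in the RefSeq table for the rat build GRCr8. Each was searched on both strands over 250 bases before and 50 after the start site. The motifs were TCACNCCAC (a core of the sterol regulatory element), CACGTG (a form of the E-box), CCAAT (the NF-Y box) and GGGCGG (the GC box). CCAAT was present in all 6, beside 37.5% of all 33469 promoters in the table, and in each only as its reverse complement. GGGCGG was present in 5 of the 6, all but Idi1, beside 33.1% of all promoters. CACGTG was present in Insig1 alone, beside 6.42%, and TCACNCCAC in none, beside 1.12%. The searched motifs do not overlap each other in the sequences printed. A match is a description of letters and not of a bound site. The sequences below are the 250 bases before the start of transcription, read 5′ to 3′ along the gene, with matches on either strand in capitals. Hmgcs1 and Idi1 are shown as a pair that moved together, Srebf2 as their regulator, and Insig1 as a regulator whose correlations with them were negative and did not pass. The GC content of these 250 bases was 63.2%, 52.8%, 68.4% and 72.8% for Hmgcs1, Idi1, Srebf2 and Insig1, beside a median of 51.2% over the same window of all promoters.
Hmgcs1, chr2:53382054-53382303, plus strand: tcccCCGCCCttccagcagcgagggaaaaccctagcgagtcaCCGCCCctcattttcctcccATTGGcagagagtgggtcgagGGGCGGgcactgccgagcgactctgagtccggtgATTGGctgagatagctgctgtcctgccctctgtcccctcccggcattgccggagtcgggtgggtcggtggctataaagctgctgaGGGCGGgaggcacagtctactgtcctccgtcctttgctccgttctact
Idi1, chr17:66547525-66547774, minus strand: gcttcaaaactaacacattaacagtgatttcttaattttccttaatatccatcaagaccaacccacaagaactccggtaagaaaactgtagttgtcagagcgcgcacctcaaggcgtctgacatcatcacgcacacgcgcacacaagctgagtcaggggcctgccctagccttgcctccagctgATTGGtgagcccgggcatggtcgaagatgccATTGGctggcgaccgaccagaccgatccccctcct
Srebf2, chr7:115543057-115543306, plus strand: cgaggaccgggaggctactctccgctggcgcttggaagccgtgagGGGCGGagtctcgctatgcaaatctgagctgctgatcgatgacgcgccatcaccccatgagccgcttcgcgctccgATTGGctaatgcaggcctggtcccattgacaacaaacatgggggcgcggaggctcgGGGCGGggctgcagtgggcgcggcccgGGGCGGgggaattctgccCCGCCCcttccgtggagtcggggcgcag
Insig1, chr4:8057770-8058019, minus strand: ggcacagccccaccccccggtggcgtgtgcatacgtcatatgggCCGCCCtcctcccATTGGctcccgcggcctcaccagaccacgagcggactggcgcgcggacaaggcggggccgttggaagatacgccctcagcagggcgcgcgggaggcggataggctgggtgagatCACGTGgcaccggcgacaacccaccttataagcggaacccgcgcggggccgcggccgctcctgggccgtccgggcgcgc

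The Hmgcs1 promoter holds ATTGG, the reverse of CCAAT, 188 and 133 bases before the start, and Idi1 holds it at 66 and 35 bases before. Insig1 holds CACGTG 79 bases before the start, the only match to CACGTG among the 6. Other forms of the E-box and of the sterol regulatory element were not searched.

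Beyond the 8 genes, 65 genes of 6 lists around the pathway were described, of which 64 had a probe and 59 passed the filter on low signal. Of these 59, the limma test called 5, 2 and 8 in the 3 male comparisons (8.47%, 3.39% and 13.6%, beside the 7.81%, 1.56% and 4.15% of all probes) and 6, 0 and 6 in the female ones (10.2%, 0% and 10.2%, beside 3.63%, 0.0945% and 5.25%). The lists were chosen with earlier results of these data known, and each list gene had its brightest probe. These shares are therefore a description and not a test. All 12 female calls described below were lost with a term for slide row. Of the 17 other enzymes of cholesterol synthesis, all were measured. In CLP against sham, 0 passed in males and 1 in females, Dhcr7, the reductase of the last step. Its female difference was -0.9998 ± 0.21 (SE, n = 5 and 5, limma adjusted p = 0.00769), and the male one -0.73 (limma adjusted p = 0.0328). The female call was lost in 4 of 11 alternative settings and when any of 11 of the 16 arrays was left out. The medians of the list were -0.11 and -0.17 in male and female CLP hearts, and 0 of 17 passed in the other comparisons.

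Of 6 genes of SREBP processing and sterol sensing, 5 were measured and 0 passed in any comparison. Scap, the escort of SREBP, differed by 0.12 in male and 0.14 in female CLP hearts (limma adjusted p = 0.452 and 0.491). The members of the list with the largest male CLP differences were Rnf139, a ubiquitin ligase of the endoplasmic reticulum (0.15, limma adjusted p = 0.777), and Mbtps1, the site-1 protease (0.12, limma adjusted p = 0.622).

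Uptake and lysosomal release held genes that changed. Of 11 genes, 9 passed the filter. Lrp1, a large endocytic receptor, rose in both sexes. Male Lrp1 levels ran from 9.41 to 10.14 in sham hearts, from 10.15 to 11.34 in CLP hearts and from 10.68 to 10.95 with landiolol. Its log2 difference in CLP against sham was 1.09 ± 0.19 in males and 1.15 ± 0.23 in females (SE, n = 5 and 5 each, limma adjusted p = 0.00113 and 0.00483). With landiolol against sham it was 1.07 and 1.25 (limma adjusted p = 0.00154 and 0.00166), and landiolol against CLP gave -0.02 and 0.10. Mylip, a ubiquitin ligase induced by the liver X receptor, rose in CLP plus landiolol against sham by 1.13 in males and 1.14 in females (limma adjusted p = 0.00112 and 0.00517). The CLP differences of Mylip were 0.51 and 0.71 (limma adjusted p = 0.0849 and 0.0854). Lipa, the lysosomal acid lipase, fell by 0.54 on the log2 scale in male CLP plus landiolol hearts against sham (limma adjusted p = 0.0038).

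Of 10 genes of efflux, storage and the liver X receptor, 9 were measured. Abca1, the transporter that hands cholesterol to apolipoprotein A-I, rose by 1.45 ± 0.21 in male and 1.23 ± 0.26 in female CLP hearts (SE, n = 5 and 5 each, limma adjusted p = 0.000272 and 0.00713), and by 1.29 and 1.32 with landiolol (limma adjusted p = 0.000828 and 0.00266), all against sham. Nceh1, a neutral cholesterol ester hydrolase, fell in the same comparisons. Its male levels ran from 12.86 to 13.24 in sham hearts and from 11.58 to 12.14 in CLP hearts. These groups did not overlap, as was so for 12.3% of all probes. The CLP difference was -1.27 ± 0.15 in males and -1.22 ± 0.21 in females (SE, limma adjusted p = 7.66e-05 and 0.00188), and with landiolol it was -0.90 and -1.12 (limma adjusted p = 0.00123 and 0.0019). Cyp27a1, the sterol 27-hydroxylase, rose with landiolol against CLP by 0.70 in males (limma adjusted p = 0.0235) and against sham by 0.67 in females (limma adjusted p = 0.00915). The female difference against CLP was 0.83 (limma adjusted p = 0.0579), with groups that did not overlap, as was so for 1.15% of all probes. Abcg1, a partner of Abca1 in efflux, rose by 0.58 in female CLP plus landiolol hearts against sham (limma adjusted p = 0.00916).

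Of 11 fatty acid genes driven by SREBP1, 10 were measured. Acss2, which makes acetyl-CoA from acetate, rose in CLP against sham by 1.49 ± 0.29 in males and 1.55 ± 0.30 in females (SE, limma adjusted p = 0.0026 and 0.00456). With landiolol its difference from sham was 0.61 and 0.88 (limma adjusted p = 0.192 and 0.0592), and that from CLP -0.88 and -0.67 (limma adjusted p = 0.142 and 0.487). Fads1, a fatty acid desaturase, fell in male CLP and CLP plus landiolol hearts, with differences of -0.90 and -1.18 (limma adjusted p = 0.00721 and 0.00134). Gpam, which begins glycerolipid synthesis, rose by 1.28 in male CLP plus landiolol hearts against sham (limma adjusted p = 0.00255). The male CLP call of Fads1 was lost in 4 of 11 settings and without any of male sham replicates 2, 3, 4 and 5 or male CLP replicates 1, 3, 4 and 5, and with normexp background correction the difference was -0.57. In male CLP plus landiolol against sham Pnpla3, a lipid droplet protein, was called lower (limma adjusted p = 0.00731), by at least 2.23-fold with this normalisation. The fold is a bound because its probe was well above background on 4 of the 5 sham arrays and on none of the 6 landiolol arrays. This call was lost in 5 of 10 settings, with a log2 difference of -0.38 under normexp and -0.44 in the authors' table, and without male CLP replicate 5 or male CLP plus landiolol replicate 1, 3 or 5. The probe passed the male filter only through the sham group, where it was high. Only 12 of the 16 fits that left out an array could test it. Of 10 genes of the mevalonate branches, which lead to prenylated proteins, dolichol and ubiquinone, 9 were measured and Rabggta passed. This subunit of the geranylgeranyl transferase of Rab proteins was higher in female CLP hearts than in sham (0.47, limma adjusted p = 0.00871) and lower in male CLP plus landiolol hearts than in CLP (-0.42, limma adjusted p = 0.0321).

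Together the 6 lists gave 27 calls, and all 27 kept their direction in every alternative fit that tested them. The call of Pnpla3 was tested in 10 of the 11 settings and in 12 of the 16 fits that left out an array. Further probes of the list genes were not compared. Of the 27 calls, 9 passed the threshold in all of these fits. They were Lrp1, Abca1 and Nceh1 in both male comparisons with sham and Mylip, Fads1 and Gpam in male CLP plus landiolol against sham. Among the female calls, those that rested most on single arrays were Rabggta, passing in 1 of 16 fits that left out an array, Abcg1 in 3, Cyp27a1 and Dhcr7 in 5 each and Abca1 in CLP in 6. With a term for slide row, 14 of the 27 calls were lost, which were all 12 female calls and the male calls of Fads1 in CLP and of Pnpla3. In female CLP plus landiolol against sham that term gave 1.44 for Lrp1, 0.70 for Mylip, 0.61 for Abca1, 0.55 for Abcg1, -0.50 for Nceh1 and 0.45 for Cyp27a1, with limma adjusted p from 0.188 to 0.683. None of the list genes was called for a difference between the sexes.

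**Figure D4:**
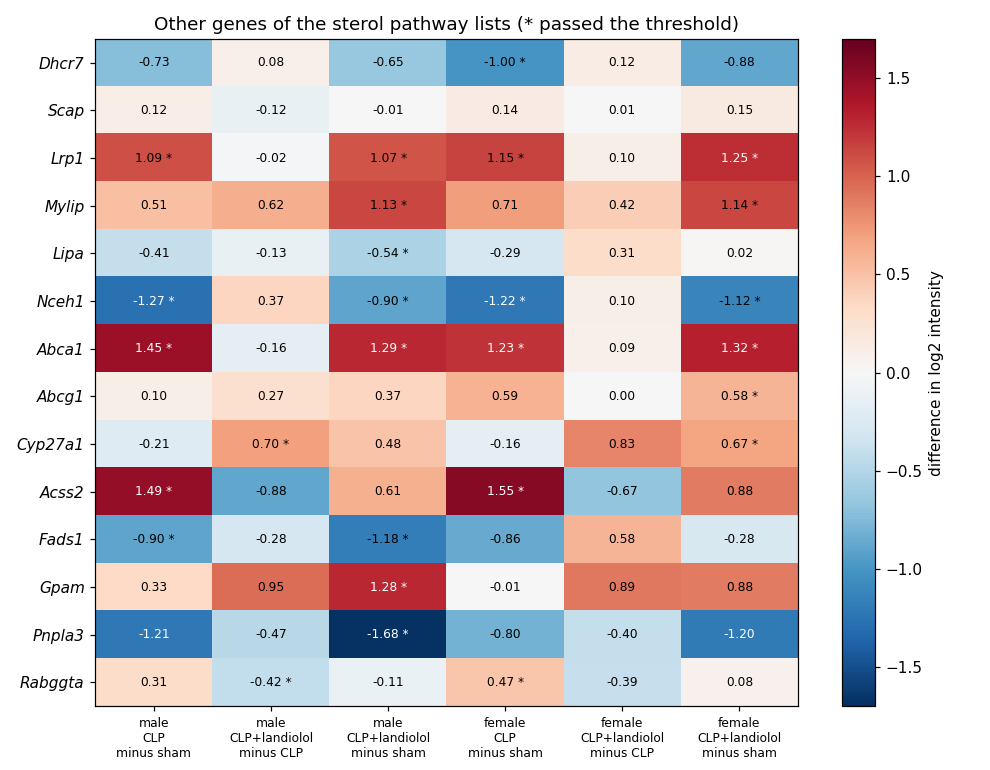
Difference in log2 intensity of 14 other genes of the pathway lists (rows) in the 6 comparisons (columns), with the value in each cell and an asterisk where the limma test passed its FDR. Lrp1 and Abca1 were called higher and Nceh1 lower in all 4 comparisons with sham, while Scap was called in none. With a term for slide row the female calls were lost.

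Some markers of white blood cells differed between the sham and CLP groups. The 3 neutrophil markers kept of 6 (S100a8, S100a9 and Lcn2) had a summed level from 9.99 to 10.41 in male sham hearts, from 14.07 to 15.92 in CLP hearts and from 13.24 to 14.80 with landiolol. In females the ranges were 9.83 to 12.36, 14.44 to 15.30 and 13.24 to 15.10. The sum adds intensities, so the brightest marker weighs most, and the single markers went both ways with landiolol. Against CLP, 2 of the 3 were higher and 1 lower in each sex. The lower one was called in males, where 1.56% of all probes were called, and none of the 3 was called in females. The other neutrophil markers, Csf3r, Mmp8 and Cxcr2, did not pass the filter. S100a8 was well above background on 0 of 5 male and 1 of 5 female sham arrays, and S100a9 on 3 and 2 of 5. Both passed the filter only through the groups with CLP, and the sham sums rest partly on signal near background. The summed level of the 7 macrophage and monocyte markers ran from 12.90 to 13.49 in male sham hearts and from 13.47 to 14.02 in male CLP hearts. In females it ran from 12.97 to 13.35 and from 13.25 to 13.66, so the ranges overlapped in each sex. In CLP against sham, 2 of the 7 were called higher in each sex, beside 7.81% of all probes called in males and 3.63% in females. In male CLP hearts 3 of 5 fibroblast markers were called lower against sham, the collagen genes Col1a1, Col1a2 and Col3a1, beside 7.81% of all probes called. Pdgfra differed by -0.40 and Dcn by 0.87 (limma adjusted p = 0.155 and 0.0467). Of 5 endothelial markers, 1 was called higher in female CLP plus landiolol hearts against sham, beside 5.25% of all probes called. Of 6 lymphocyte markers 3 passed the filter in males and 2 in females, where Cd8a did not, and none was called. Their differences in male CLP against sham were -1.36 for Cd3g, -0.86 for Nkg7 and -0.75 for Cd8a (limma adjusted p = 0.0101, 0.0178 and 0.276). Cd8a was well above background on 4 of 5 male sham, 0 of 5 male CLP and 2 of 6 male landiolol arrays. It passed the male filter only through the sham group, where it was high, so its difference rests on CLP signal near background. The groups did not overlap for Cd3g and Nkg7, as was so for 12.3% of all probes. The summed level of the 3 lymphocyte markers, Cd8a included, ran from 9.17 to 9.90 in male sham and from 8.18 to 9.05 in male CLP hearts. Of the adipocyte markers only Cfd passed the filter, while Adipoq, Lep, Plin1 and Cidec did not. The part of these cells in the differences of Lrp1, Abca1, Nceh1 and the 8 members was not tested.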

How the data were processed

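Left ventricular RNA of 32 rats was hybridised in 1 colour to Agilent rat arrays. The authors state that spot intensities were extracted with Agilent Feature Extraction 10.5, which subtracts the background. The file headers name 2 versions of the extraction protocol. The deposited intensity of each spot (processed signal) was used here. Its log2 was taken, 213 outlier spot values were left out, replicate spots were averaged per probe, and quantile normalisation was run on the 16 arrays of each sex. A probe was kept where, in 1 group or more, at least 80% of arrays had it well above background, 25866 in males and 25395 in females of 45598. The table of log2 values deposited by the authors, already normalised by them, served as an alternative.

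Groups were compared with limma 3.58.1 in R 4.3.3 over the 3 groups of a sex, with Benjamini-Hochberg adjustment over all probes kept. The sex differences used the 32 arrays normalised jointly. The authors' own test, significance analysis of microarrays, was not run. The fitting procedure was tested on simulated data. Each array was an animal of its own, and the number of arrays limits the precision. Alternatives changed the scaling, background correction, filter, prior, weights, slide term, samples in the fit, false discovery rate and probe, and left out each array.

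The brightest probe on average stood for a gene. Besides the 8 genes, Scap was named, with every list gene called in at least 1 comparison and, for a list with none, the 2 with the largest absolute difference in male CLP against sham. Some genes that the rule names are not reported here. The 8 genes, the 6 pathway lists and the marker lists were chosen with earlier results of these data known. Promoter sequences came from RefSeq (GRCr8), and probe positions are those of the array files (rn4).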

Additional observations from a re-analysis of the deposited data

Results flagged for a closer look

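Of the 48 sets of 5 or 6 arrays formed by the 8 genes and 6 groups, 4 held an array that stood apart from its group by Dixon's criterion at the 95% level, a level at which chance marks about 1 set in 20. Female CLP plus landiolol replicate 1 was lowest of its 6 arrays for both Idi1 (8.25, the others from 9.06 to 9.54) and Sqle (6.84, the others from 7.37 to 7.68). Male CLP replicate 1 was highest of its 5 arrays for Fdft1 (11.80, the others from 11.20 to 11.26). Female CLP replicate 4 was lowest of its 5 arrays for Insig1 (12.47, the others from 12.79 to 12.91), and without it the difference of Insig1 between female CLP plus landiolol and CLP was 0.63 (limma adjusted p = 0.223).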

How the results depend on the processing

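No member was called with the main processing, and some alternatives gave 1 or 2 calls. In male CLP against sham the count of members called was 1 with scaling to the 75th percentile, normexp background correction, the filter on all arrays of a sex, a trended prior, array weights, a slide term and the authors' table. In male CLP plus landiolol against sham it was 1 with normexp and with array weights. In female CLP against sham and in female CLP plus landiolol against sham it was 1 each with array weights and with the authors' table, and in female CLP plus landiolol against CLP it was 1 with array weights. With the 1% and 5% levels exchanged it was 1, 1, 1 and 2 in male CLP, male CLP plus landiolol, female CLP and female CLP plus landiolol against sham. With single arrays left out the counts ran from 0 to 1 in the 3 male comparisons. No sex difference was called in any setting.

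Differences that changed sign were at most 0.36 in size with all arrays and 0.11 in the fits that left one out. For CLP plus landiolol against CLP, females gave 0.006 (Fdft1) and 0.0359 (Srebf2) with array weights and -0.0145 (Hmgcs1) and -0.0217 (Lss) with a term for slide row, an alternative chosen after seeing the data. That term gave -0.19 for Lss in female CLP plus landiolol against sham. Further probes gave, in male CLP plus landiolol against CLP, -0.0128 (Idi1), -0.10 and -0.0776 (Lss), -0.0356 (Insig1) and -0.15 (Srebf1), and -0.15 (Insig1) against sham, and 0.35 and 0.42 for Lss in female CLP against sham. Sex differences of CLP plus landiolol against CLP became -0.0279 (Srebf2) with the 75th percentile, -0.12 (Srebf2) with array weights, -0.0015 (Srebf2) in the authors' table, and -0.0041 (Sqle), 0.0543 (Lss) and -0.0203 (Srebf2) with slide row. Those of CLP against sham became -0.0246 (Sqle) and -0.0052 (Insig1) with array weights. The causes were not tested.

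With arrays left out, values ran in male CLP plus landiolol against CLP from -0.17 to 0.0328 (Srebf2), -0.0204 to 0.13 (Lss) and -0.0555 to 0.22 (Idi1), in females from -0.0593 to 0.14 (Hmgcs1) and -0.14 to 0.0191 (Fdft1), and for Lss in female CLP against sham from -0.12 to 0.12. Sex differences ran, for CLP against sham, from -0.088 to 0.23 (Sqle), -0.0154 to 0.19 (Insig1), -0.0056 to 0.21 (Hmgcs1) and -0.21 to 0.24 (Idi1), and for CLP plus landiolol against CLP from -0.0838 to 0.12 (Srebf2) and -0.03 to 0.25 (Sqle). No paired analysis was run, because each array was an animal of its own. The labels carry no replicate numbers.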
